A study of Mus musculus with 6 samples.

Results

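The integrated stress response and the unfolded protein response were followed here through 10 genes in blood stem cells of aged and young mice. The genes were Trib3, Ddit3, Atf4, Atf3, Chac1, Asns, Sesn2, Hspa5, Xbp1 and Herpud1, chosen by symbol as known regulators and targets of these responses. All 10 were among the 24091 genes of the deposited count table, and 9 of them were among the 13413 genes with enough counts to be tested. Aged hematopoietic stem cells came from 20-month-old mice (3 libraries, aged 1 to aged 3) and young ones from 2-month-old mice (3 libraries, young 4 to young 6). All cells were labelled wild type. Sorting kept cells without lineage markers that carried Sca-1, c-Kit and CD150 but no CD48. Aged samples were pools of 4 mice and young samples pools of 30 mice. Whether each pool or each age had that many mice is not stated, so a p-value reflects only how the pools varied, in part perhaps for technical reasons. Young 4 stood apart before any gene was compared: it was the smallest library, and its scaling factor was 0.765, against 1.04 to 1.08 in the other 5.

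The integrated stress response starts with kinases that sense amino acid shortage, double-stranded RNA, heme shortage or misfolded proteins and phosphorylate the translation factor eIF2. Most protein synthesis then slows, while the mRNA of the transcription factor ATF4 is translated more efficiently. The unfolded protein response joins this route through the kinase PERK and adds the sensors IRE1 and ATF6, which turn on chaperones and degradation factors of the endoplasmic reticulum (ER). Blood stem cells are known for a low rate of protein synthesis. ATF4 is controlled largely in translation and XBP1 by splicing of its mRNA, and gene counts show neither step.

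Of these genes, Trib3 alone passed the test for age: it rose about 4-fold in aged stem cells. Trib3 encodes a pseudokinase that is induced by ATF4 and CHOP and dampens their activity. The other 8 tested genes did not pass. Among them, Xbp1, Chac1 and Sesn2 had higher means in aged libraries, Herpud1 had a lower mean, and Atf4, Ddit3, Asns and Hspa5 had fitted log2 fold changes between -0.21 and 0.25. In all, 1 of the 9 was called higher and 0 lower by edgeR's quasi-likelihood test, with Benjamini-Hochberg adjustment over all tested genes and a threshold of 0.05. Over all tested genes, 4.26% were called higher and 1.5% lower, together 5.76%, so the count of 1 was near the background. Before adjustment, 2 of the 9 were higher and 1 lower at p under 0.05, next to 13.9% higher and 11.1% lower over all genes. DESeq2 called 1 higher and 1 lower, limma-voom 1 and 0, and limma-voom with quality weights 2 and 2. Over all genes tested, DESeq2 called 16.3%, limma-voom 6.09% and limma-voom with quality weights 30.5% in either direction. The median log2 fold change of the 9 was 0.25, against 0.04 over all genes tested.

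**Figure D1:**
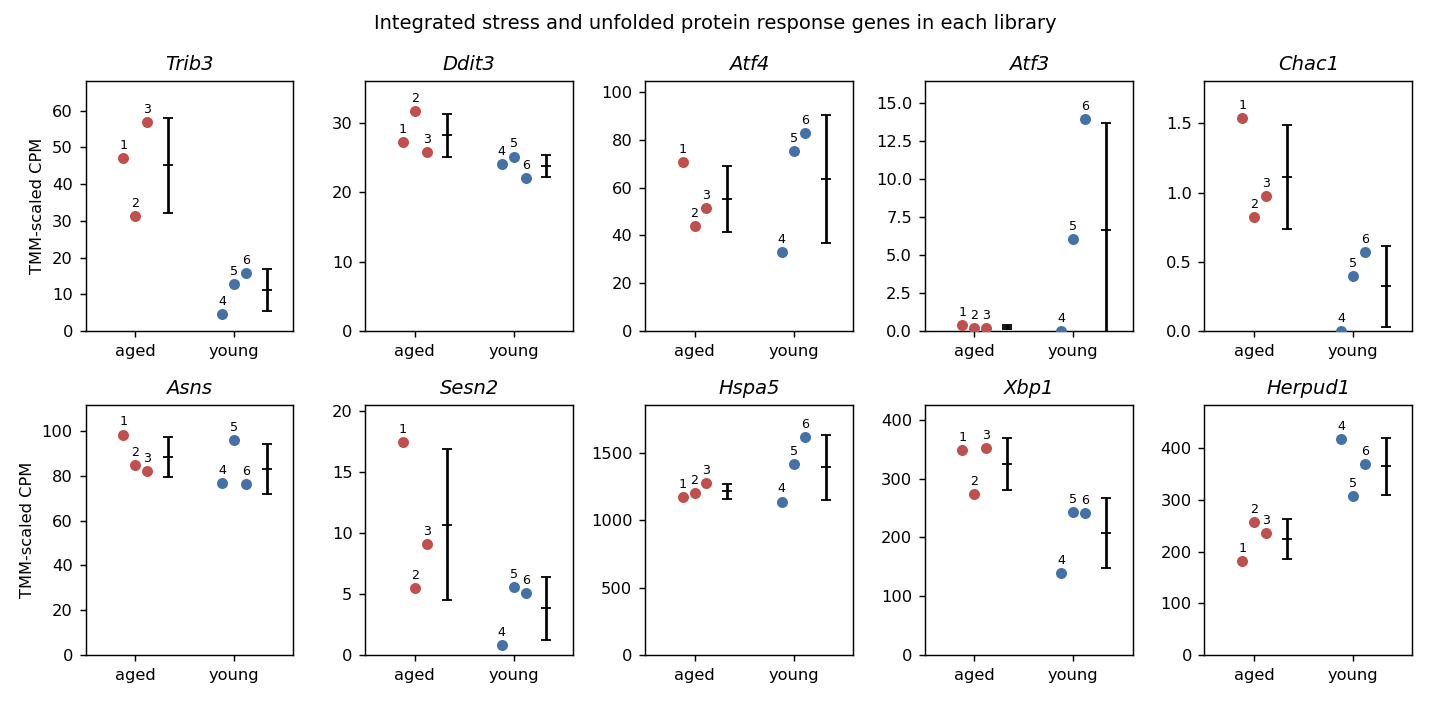
Scaled counts relative to library size (CPM, with TMM factors) of each gene in the 3 aged (left, red) and 3 young (right, blue) libraries, numbered as in the text, with bars for mean ± SD. Trib3 lay between 31.2 and 57.0 CPM in aged and between 4.77 and 15.7 CPM in young libraries; the SD bar of young Atf3 reaches below 0 and ends at the axis.

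Stretches of promoters are shown to place these genes in the arms of the response, with the DNA elements through which such genes are known to be induced. All 10 genes matched a window of 250 bases before to 50 bases after the start site in RefSeq's sequences of the build GRCm38.p6. Windows were searched on both strands for the C/EBP-ATF element bound by ATF4 and its partners (TGATGNAA), the ER stress element of ATF6 targets (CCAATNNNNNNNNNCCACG), the ER stress element II (ATTGGNCCACG) and the cAMP response element (TGACGTCA). In the 4 sequences with the C/EBP-ATF element and the 2 with an ER stress element, capitals mark the match, and no match overlapped another.
Hspa5, chr2:34772003-34772065, plus strand, ER stress element: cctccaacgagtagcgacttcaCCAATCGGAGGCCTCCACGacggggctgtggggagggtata
Herpud1, chr8:94386355-94386409, plus strand, ER stress element II: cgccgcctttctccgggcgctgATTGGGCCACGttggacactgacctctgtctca
Herpud1, chr8:94386295-94386346, plus strand, C/EBP-ATF element in reverse: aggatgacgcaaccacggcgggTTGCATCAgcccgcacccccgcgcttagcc
Chac1, chr2:119351027-119351078, plus strand, C/EBP-ATF element in reverse: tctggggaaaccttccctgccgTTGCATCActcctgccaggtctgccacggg
Atf3, chr1:191183414-191183465, minus strand, C/EBP-ATF element in reverse: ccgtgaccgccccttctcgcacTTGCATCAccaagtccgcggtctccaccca
Asns, chr6:7693210-7693254, minus strand, C/EBP-ATF element: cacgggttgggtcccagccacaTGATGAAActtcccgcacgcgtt

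The C/EBP-ATF letters were in 5 of the 10 windows and in 3.97% of all 32851 promoter windows. The fifth was Trib3, where the match (TTACATCA) lay after the start site. The ER stress element was in 0.119% and the ER stress element II in 0.0365% of all windows. The cAMP response element was in 1.79% of all windows and in 0 of the 10. The 4 tested genes whose windows held the C/EBP-ATF letters had log2 fold changes of 2.01 (Trib3), 1.64 (Chac1), 0.09 (Asns) and -0.70 (Herpud1). Only Trib3 among them passed the test for age, and Atf3, which held the letters too, was not tested. Whether these letters went with a shared direction was not tested.

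Atf4, the transcription factor at the centre of the integrated stress response (mm10 chromosome 15, 80255184 to 80257545, plus strand), did not pass the test. It stood at 70.6, 43.8 and 51.3 CPM in aged 1 to aged 3, against 33.2, 75.1 and 82.8 CPM in young 4 to young 6. The groups overlapped, with the lowest and the highest value both in young libraries. The fitted log2 fold change was -0.21 ± 0.36 (SE), with a 95% interval of -1.05 to 0.63 and an adjusted p of 0.731. The sign of this small value turned without young 6, where it was 0.025.

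Ddit3 encodes CHOP, a transcription factor that acts downstream of ATF4 and is linked to cell death under lasting ER stress (chromosome 10, 127290793 to 127296288, plus strand). It stood at 27.1, 31.6 and 25.8 CPM in aged and 24.1, 25.1 and 22.05 CPM in young libraries. The aged values lay just above the young ones without overlap. The log2 fold change of 0.25 ± 0.17 (95% interval -0.16 to 0.65, adjusted p = 0.387) did not pass the test. Exons of Ddit3 share 68 bases with exons of Mars on the opposite strand, and the library kit does not mark strand, so a few reads may belong to Mars.

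Trib3 (chromosome 2, 152337425 to 152344060, minus strand) stood at 47.0, 31.2 and 57.0 CPM in aged libraries and at 4.77, 13.0 and 15.7 CPM in young libraries. The lowest aged library was well above the highest young one. The means were 45.1 ± 13.0 CPM in aged cells, with 11.1 ± 5.68 CPM in young cells (SD, n = 3 each), a 4.02-fold rise (log2 fold change 2.01 ± 0.45 SE, 95% interval 0.96 to 3.05, adjusted p = 0.0478). The adjusted p lay close to the threshold. It was 0.0304 without young 4, the library with the lowest Trib3, and between 0.0845 and 0.167 without any of aged 1, aged 2, aged 3, young 5 or young 6, while the log2 fold change stayed between 1.63 and 2.33 in these 6 runs.

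Atf3, a stress-induced transcription factor that is also an immediate early gene (chromosome 1, 191170297 to 191218039, minus strand), was not tested. It had enough counts in young 5 and young 6 only, fewer libraries than the filter asks for. It had 9, 4 and 5 counts in aged libraries, against 0, 122 and 319 counts in young 4, young 5 and young 6. These are 0.432, 0.206 and 0.232 CPM in aged cells and 0, 6.08 and 14.0 CPM in young cells. The signal thus stood out in young 5 and young 6. The 0 counts of young 4 allow up to 0.239 CPM at 3 counts, which is within the aged range. With all 6 libraries and no filter on low counts the log2 fold change was -4.52 ± 1.16, with an adjusted p of 0.0524. Settings without young 4 let Atf3 through the filter only by way of young 5 and young 6, so no call is read from them.

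Other immediate early genes, which cells induce within minutes of handling or growth signals, mostly differed between the young libraries as Atf3 did. Of the 20 genes in that list, 18 had their lowest young value in young 4 and their highest in young 6. The exceptions were Fosl1 and Ier5, of which Ier5 was highest in young 4. All 20 summed to between 3255 and 5378 CPM in aged libraries, and in the young ones to 1190 CPM (young 4), 6919 CPM (young 5) and 11110 CPM (young 6). Nr4a1, a nuclear receptor gene of this class, stood at 16.2, 7.84 and 14.7 CPM in aged libraries and at 1.75, 155 and 450 CPM in young libraries. By edgeR's quasi-likelihood test 0 of the 19 tested passed. Before adjustment, 4 were lower and 0 higher at p under 0.05, next to 11.1% and 13.9% of all genes. DESeq2 called 4 of the 19 lower, next to 16.3% of all genes in either direction. The part of handling or of immediate early induction in the Atf3 values was not tested.

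**Figure D2:**
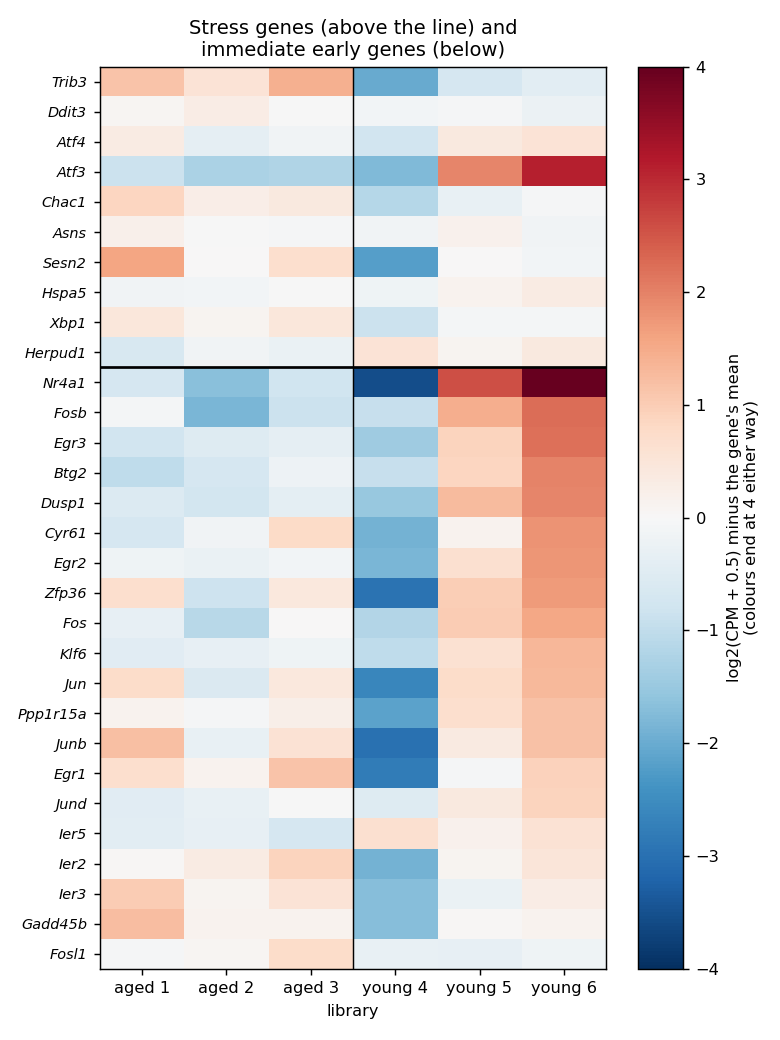
Each cell shows log2(CPM + 0.5) of a gene in a library minus that gene's mean over the 6 libraries, with the 10 stress genes above the line and 20 immediate early genes below it, aged libraries left and young libraries right. The median of the immediate early genes was -1.71 in young 4, 0.62 in young 5 and 1.31 in young 6, and Atf3 shared that order.

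Among the targets that serve amino acid and redox balance, Asns was at like levels in both groups. Asns encodes asparagine synthetase, a standard readout of amino acid shortage (chromosome 6, 7675171 to 7693182, minus strand). It stood at 98.4, 84.6 and 81.9 CPM in aged libraries, against 76.6, 96.1 and 76.5 CPM in young libraries. The groups overlapped. The log2 fold change was 0.09 ± 0.17, and its 95% interval of -0.31 to 0.48 leaves out a change of 2-fold in either direction.

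Chac1, which encodes an enzyme that breaks down glutathione (chromosome 2, 119351242 to 119354327, plus strand), was near the limit of detection. It had 32, 16 and 21 counts in aged libraries and 0, 8 and 13 counts in young libraries, or 1.53, 0.826 and 0.975 CPM against 0, 0.399 and 0.570 CPM. Every aged value was above every young one. Its log2 fold change of 1.64 ± 0.73 (95% interval -0.08 to 3.35, adjusted p = 0.216) did not pass the test. The sequence of its window above holds the same 8 letters as those of Atf3 and Herpud1.

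Sesn2 encodes sestrin 2, a stress-induced protein that restrains the growth kinase mTORC1 (chromosome 4, 132492807 to 132510456, minus strand). It stood at 17.5, 5.47 and 9.10 CPM in aged libraries and at 0.795, 5.53 and 5.08 CPM in young libraries. Aged 1 was the highest and young 4 the lowest library, and aged 2 lay between young 6 and young 5. Its log2 fold change of 1.46 ± 0.69 (95% interval -0.15 to 3.07, adjusted p = 0.233) did not pass. It was 0.91 without aged 1 and 0.98 without young 4.

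Relatives of these genes gave further values. Trib2, another pseudokinase of the tribbles family, rose 4.27-fold, with 49.8 ± 9.81 CPM in aged cells, with 11.6 ± 3.34 CPM in young cells (adjusted p = 0.0139). Trib1 stood at 20.2 ± 3.98 CPM in aged cells, with 9.78 ± 4.54 CPM in young cells (adjusted p = 0.136). Sesn1 stood at 277 ± 37.2 CPM in aged cells, with 180 ± 4.81 CPM in young cells (adjusted p = 0.0757), and Sesn3 at 12.6 ± 1.40 and 8.23 ± 2.61 CPM in aged and young cells (adjusted p = 0.237). Trib1, Sesn1, Sesn3 and Sesn2 each had a higher mean in aged cells without passing the test. Chac2, the paralog of Chac1, had 21.3 ± 1.69 CPM in aged cells, with 17.2 ± 6.29 CPM in young cells (adjusted p = 0.486), with overlapping groups.

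The ER genes differed in direction among themselves. Hspa5 encodes BiP, the main ER chaperone, which also holds the ER stress sensors inactive (chromosome 2, 34772090 to 34776529, plus strand). It was the most abundant of the 10 genes, at 1170, 1202 and 1280 CPM in aged libraries and 1140, 1419 and 1621 CPM in young libraries. The aged values were close together and lay within the young range. The log2 fold change of -0.20 ± 0.20 (95% interval -0.67 to 0.28, adjusted p = 0.553) did not pass the test. That interval leaves out a 2-fold change in either direction.

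Xbp1 encodes the transcription factor that IRE1 activates by splicing (chromosome 11, 5520641 to 5525993, plus strand). It stood at 348, 274 and 352 CPM in aged libraries and at 139, 243 and 241 CPM in young libraries. Each aged library was above each young one, with aged 2 and young 5 the nearest pair and young 4 the farthest below. Its log2 fold change of 0.64 ± 0.26 (95% interval 0.04 to 1.25, adjusted p = 0.179) did not pass the test. It was 0.40 without young 4. The counts join the spliced and unspliced forms.

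Herpud1 encodes a membrane protein of the ER that takes part in degrading misfolded proteins (chromosome 8, 94386500 to 94395358, plus strand). It stood at 182, 257 and 237 CPM in aged libraries, against 418, 307 and 370 CPM in young libraries. Each aged library was below each young one, and young 4, lowest for 7 of the 10 genes, was the highest here. The means were 225 ± 39.0 CPM in aged cells, with 365 ± 55.4 CPM in young cells (SD, n = 3 each). The log2 fold change of -0.70 ± 0.21 (95% interval -1.19 to -0.21, adjusted p = 0.0971) did not pass by edgeR's quasi-likelihood test. DESeq2 called it lower, with an adjusted p of 0.0213.

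**Figure D3:**
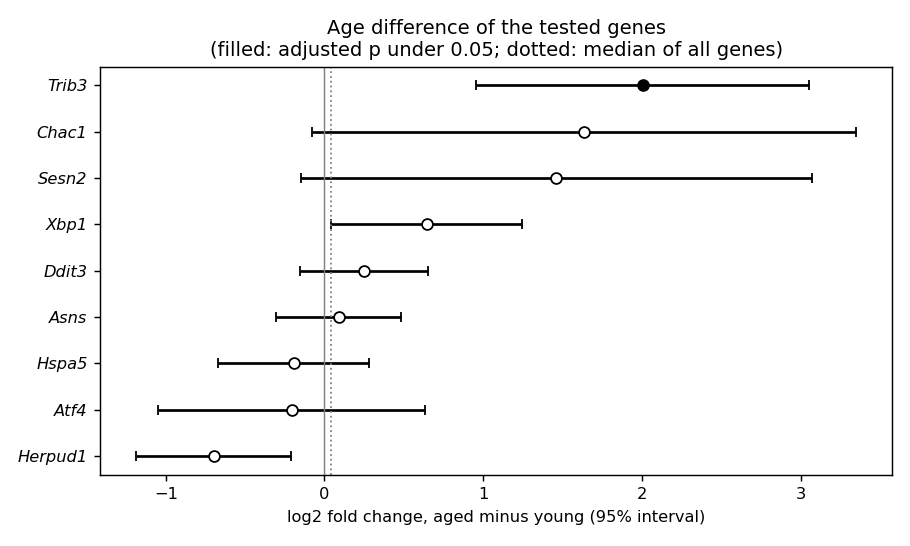
Log2 fold change of the 9 tested genes, aged minus young, with 95% intervals from edgeR's quasi-likelihood fit; the filled point passed an adjusted p of 0.05 and the dotted line marks the median of all genes, 0.04. Trib3 is the filled point, at 2.01, and the lowest is Herpud1, at -0.70.

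Of the 9 tested genes, 5 had groups that did not overlap: Trib3, Ddit3, Chac1 and Xbp1 with aged higher, and Herpud1 with aged lower. Such separation was common, with aged higher for 19% and aged lower for 17.6% of all genes tested. Young 4 had the lowest value of the 6 libraries for 7 of the 10 genes and the highest for 1. Where young 4 was left out, the log2 fold changes of Trib3, Chac1, Sesn2 and Xbp1 were 1.63, 1.16, 0.98 and 0.40, each smaller than with it.

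Levels of different genes were set side by side only per length, as CPM per kb of gene length. In aged cells Hspa5 led with 467 ± 21.6 CPM per kb, followed by Xbp1 (145 ± 19.6), Herpud1 (121 ± 20.9), Asns (46.1 ± 4.61), Ddit3 (32.5 ± 3.54), Atf4 (32.0 ± 8.01) and Trib3 (22.02 ± 6.35). Sesn2, Chac1 and Atf3 were below 7 CPM per kb in every aged library. In young cells Hspa5 stood at 534 ± 92.7 CPM per kb, followed by Herpud1 (196 ± 29.8), Xbp1 (92.6 ± 26.5), Asns (43.4 ± 5.90), Atf4 (36.9 ± 15.5), Ddit3 (27.4 ± 1.80) and Trib3 (5.44 ± 2.78). Xbp1 and Herpud1 stood in opposite order in the age groups. Herpud1 was above Xbp1 in all 3 young libraries and in 1 of the 3 aged ones, where the difference between them was within their spread. Ddit3 and Atf4 did not differ beyond their spread in either group.

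Ratios within a library do not depend on how libraries are scaled, and they were formed after the values were seen, so they carry no test. Per kb, Trib3 stood at 0.561, 0.601 and 0.936 of Atf4 in aged libraries and at 0.121, 0.145 and 0.160 of Atf4 in young libraries. Xbp1 stood at 0.346, 0.265 and 0.320 of Hspa5 in aged libraries and at 0.142, 0.199 and 0.173 of Hspa5 in young libraries. In each of these ratios all aged libraries were above all young ones. Herpud1 per Hspa5 was 0.217, 0.299 and 0.259 in aged and 0.513, 0.303 and 0.320 in young libraries, with aged 2 and young 5 nearly equal. Trib3 per Ddit3 was 0.733, 0.418 and 0.937 in aged and 0.0839, 0.218 and 0.301 in young libraries. The groups overlapped for Ddit3 per Atf4 (0.765, 1.44 and 0.999 in aged, 1.45, 0.666 and 0.530 in young). They also overlapped for Asns per Atf4 (1.26, 1.74 and 1.44 in aged, 2.08, 1.15 and 0.833 in young).

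The genes whose profile over the 6 libraries lay nearest to a stress gene were found by the root mean square distance of centred log2(CPM + 0.5). For Trib3 they were Ehd3 (distance 0.12), Padi4 (0.13) and Ezh1 (0.14). Ehd3 stood at 280, 160 and 344 CPM in aged libraries and at 28.5, 77.5 and 76.8 CPM in young libraries. For Atf4 they were Taok3 (0.05), Ino80e (0.06) and Dolpp1 (0.06), for Hspa5 they were Fam172a (0.04), Topors (0.05) and Mef2c (0.06), and for Xbp1 they were Zfp93 (0.04), Pkm (0.04) and BC029214 (0.05). With 6 libraries, of which young 4 was the lowest for Trib3, Atf4, Hspa5 and Xbp1, these distances describe the libraries and carry no test.

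The wider pathway was read through 10 lists with 168 tested genes besides the 10 above. Of these 168, 4 were called higher and 1 lower by edgeR's quasi-likelihood test, next to 4.26% and 1.5% of all genes. Those called higher were Nupr1, Trib2, Vldlr and Casp12, and the one called lower was Psat1. Before adjustment, 11 were higher and 23 lower at p under 0.05, next to 13.9% and 11.1% of all genes. Among all genes, 52.7% had a positive and 47.3% a negative log2 fold change, against which the signs in each list can be read. The median log2 fold change of the 168 was -0.10, against 0.04 over all genes. Of all genes, DESeq2 called 16.3%, limma-voom 6.09% and limma-voom with quality weights 30.5%, against which their counts in each list can be read.

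**Figure D4:**
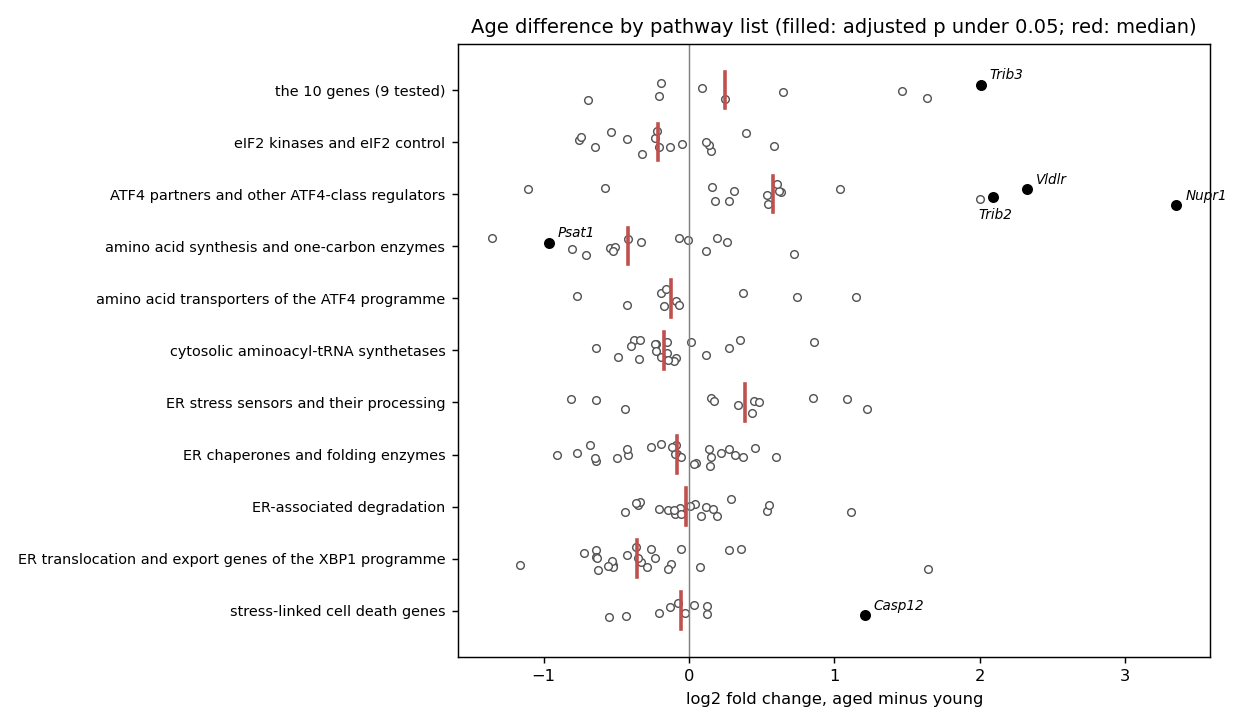
Each circle is a tested gene placed at its log2 fold change, aged minus young, in the row of its list; filled circles passed an adjusted p of 0.05 and red lines are list medians. The list with the highest median, 0.57, holds Nupr1, Vldlr and Trib2, and the list of amino acid synthesis has the lowest, -0.42.

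The list of ATF4 partners and other regulators of its class, which also holds targets such as Vldlr, held 3 of the calls. Of 16 tested by edgeR's quasi-likelihood test, Vldlr, Nupr1 and Trib2 rose and 0 fell, next to 4.26% and 1.5% of all genes. A positive log2 fold change was found for 14, next to 52.7% of all genes, with a median of 0.57. As the list was chosen with earlier results of these data known, these counts only describe it. Vldlr, a lipoprotein receptor gene that ATF4 can induce under ER stress, stood at 101, 71.7 and 72.7 CPM in aged libraries and at 15.4, 16.5 and 17.0 CPM in young libraries. It rose 5.01-fold (log2 fold change 2.33 ± 0.20, adjusted p = 0.00381) and kept its call with each library left out. Nupr1, a stress-induced chromatin-binding protein gene, stood at 352, 505 and 631 CPM in aged libraries and at 78.2, 34.5 and 33.2 CPM in young libraries. It rose 10.2-fold (log2 fold change 3.35 ± 0.42, adjusted p = 0.0131). The call of Nupr1 was lost without aged 3 (0.0528), young 5 (0.0619) or young 6 (0.0515), and that of Trib2 without aged 3 (0.0528) or young 6 (0.0656).

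Enzymes and carriers that feed amino acid supply had mostly negative values. Of 15 tested genes of amino acid synthesis and one-carbon metabolism, edgeR called 1 lower and 0 higher, 11 were negative, and 7 were lower at an unadjusted p under 0.05, next to 11.1% of all genes. DESeq2 called 2 lower and 0 higher, and quality-weighted voom 8 lower and 1 higher, next to 16.3% and 30.5% of all genes in either direction. Psat1, an enzyme of serine synthesis, fell 1.95-fold to 90.2 ± 14.0 CPM in aged cells, against 176 ± 30.5 CPM in young cells (adjusted p = 0.0414). This call remained without young 4 and was lost without any other library. Mthfd2, a mitochondrial folate enzyme gene and common ATF4 target, stood at 17.6, 6.86 and 4.64 CPM in aged and 23.7, 25.6 and 25.1 CPM in young libraries (adjusted p = 0.138). The groups of Mthfd2 did not overlap, and aged 1 lay closest to the young values. Mthfd2 was called lower without aged 1 by edgeR's quasi-likelihood test (adjusted p = 0.0277), and with no other library left out. It was called in 4 of 20 alternatives, DESeq2 and a likelihood ratio test among them.

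Of 10 tested amino acid transporters, none was called by edgeR, DESeq2 or limma-voom, and quality-weighted voom called 1 lower. At an unadjusted p under 0.05, 1 was lower, next to 11.1% of all genes. That was Slc7a5, a carrier of large neutral amino acids, with 9.78 ± 2.58 CPM in aged cells, with 16.7 ± 4.94 CPM in young cells. Slc7a11, the cystine carrier gene, was at 1.78 ± 0.21 and 1.04 ± 0.35 CPM in aged and young cells (adjusted p = 0.247). Of 20 aminoacyl-tRNA synthetases of the cytosol, none was called by edgeR, and 15 were negative. At an unadjusted p under 0.05, 2 were lower, next to 11.1% of all genes. These were Yars, at 86.6 ± 6.72 and 114 ± 5.89 CPM in aged and young cells (adjusted p = 0.154), and Nars, at 314 ± 41.4 and 441 ± 72.6 CPM (adjusted p = 0.183). DESeq2 called 1 of the 20 lower, limma-voom 0, and quality-weighted voom 5 lower, next to 16.3%, 6.09% and 30.5% of all genes in either direction.

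The eIF2 kinases and the factors of eIF2 control had 0 calls among 16 tested genes by edgeR and limma-voom. DESeq2 called 1 lower and quality-weighted voom 4 lower and 1 higher, next to 16.3% and 30.5% of all genes in either direction. Before adjustment, 5 were lower and 0 higher at p under 0.05, next to 11.1% and 13.9% of all genes. Eif2s1, which encodes the subunit of eIF2 that the kinases phosphorylate, stood at 248 ± 17.5 CPM in aged cells, with 420 ± 147 CPM in young cells (adjusted p = 0.136), with young 4 at 589 CPM. Eif2b5, the catalytic subunit of the exchange factor eIF2B, stood at 40.7 ± 10.6 and 63.7 ± 8.99 CPM in aged and young cells (adjusted p = 0.153). Eif2ak3, which encodes PERK, was at 10.8 ± 0.46 and 9.97 ± 1.51 CPM in aged and young cells (adjusted p = 0.746). Ppp1r15a encodes GADD34, which reverses eIF2 phosphorylation and is an immediate early gene too. It stood at 429, 376 and 454 CPM in aged libraries and at 86.9, 619 and 868 CPM in young libraries, with young 4 the lowest and young 6 the highest, as for Atf3. Its log2 fold change of -0.32 ± 0.68 (adjusted p = 0.781) did not pass edgeR's quasi-likelihood test. Without young 4 it was -0.85 and was called lower (adjusted p = 0.0399), next to 7.47% of all genes called in either direction in that run.

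ER stress sensors and the genes that process them had no call among 12 tested by edgeR, DESeq2 or limma-voom, with 9 positive and a median of 0.39, and quality-weighted voom called 1 higher. Ern1, which encodes IRE1, was higher at an unadjusted p under 0.05, but its 41.3 CPM in aged 1 stood apart from 14.1 and 12.3 CPM in the other aged and 6.36, 9.96 and 12.5 CPM in the young libraries. Atf6 stood at 26.3 ± 3.76 CPM in aged cells, with 19.3 ± 2.30 CPM in young cells (adjusted p = 0.208). The groups of Atf6 did not overlap.

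ER chaperones and folding enzymes had 0 calls among 26 tested by edgeR and limma-voom. DESeq2 called 5 lower and 0 higher and quality-weighted voom 6 lower and 1 higher, next to 16.3% and 30.5% of all genes in either direction. Before adjustment, 5 were lower and 1 higher at p under 0.05, next to 11.1% and 13.9% of all genes. The list's median was -0.09. Dnajb11, a co-chaperone of BiP, stood at 121 ± 8.49 CPM in aged cells, with 188 ± 28.5 CPM in young cells (adjusted p = 0.0765, and 0.0481 without young 4). Fkbp2, a prolyl isomerase gene of the ER, stood at 61.8 ± 7.37 and 105 ± 24.1 CPM in aged and young cells (adjusted p = 0.0765). Hsp90b1, the ER chaperone GRP94, stood at 312 ± 26.2 and 417 ± 58.1 CPM in aged and young cells (adjusted p = 0.202). Groups did not overlap for 10 of the 26, of which 4 had the aged libraries higher (Pdia4, Dnajc3, Sil1 and Ero1lb), next to 17.6% of all genes with aged lower and 19% with aged higher.

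ER-associated degradation had 0 calls among 20 tested by edgeR, DESeq2 or limma-voom, and quality-weighted voom called 2 higher. At an unadjusted p under 0.05, 1 was higher, next to 13.9% of all genes. That was Edem2, which helps to mark misfolded glycoproteins, at 156 ± 15.8 CPM in aged cells, with 108 ± 24.4 CPM in young cells (adjusted p = 0.175). Ube2j2, a ubiquitin-conjugating enzyme gene of this route, stood at 36.3 ± 2.59 and 45.9 ± 3.08 CPM in aged and young cells (adjusted p = 0.218). Genes of ER translocation and export had 0 calls among 24 by edgeR and limma-voom, 1 higher and 1 lower by DESeq2, 1 higher and 6 lower by quality-weighted voom, and 20 negative values with a median of -0.36. For some of them young 4 stood apart. Ssr1 was at 4675 CPM there, against 1199 and 1280 CPM in young 5 and 6 and 711 to 1432 CPM in aged libraries. Ssr4 was at 252 CPM there, against 143 and 131 CPM, with 132 to 153 CPM in aged libraries. Groups did not overlap for 10 of the 24, of which 2 had aged higher, next to 17.6% of all genes with aged lower and 19% with aged higher. The smallest p in that list belonged to Wfs1, an ER membrane protein gene at 3.12 ± 0.87 CPM in aged cells, with 0.956 ± 0.567 CPM in young cells (adjusted p = 0.101). Next was the signal peptidase gene Spcs3, at 413 ± 58.5 and 683 ± 197 CPM in aged and young cells (adjusted p = 0.134).

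Among 10 stress-linked cell death genes, edgeR called 1 higher and 0 lower, and quality-weighted voom 1 higher and 1 lower (Pmaip1). Casp12, a caspase gene tied to the ER in mice, stood at 183, 232 and 202 CPM in aged libraries and at 112, 85.6 and 69.1 CPM in young libraries. It rose 2.31-fold (log2 fold change 1.21 ± 0.22, adjusted p = 0.0323), and this call remained without young 4 and was lost without any other library. Mcl1, a survival factor gene, stood at 98.9 ± 16.5 CPM in aged cells, with 133 ± 18.3 CPM in young cells (adjusted p = 0.215).

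**Figure D5:**
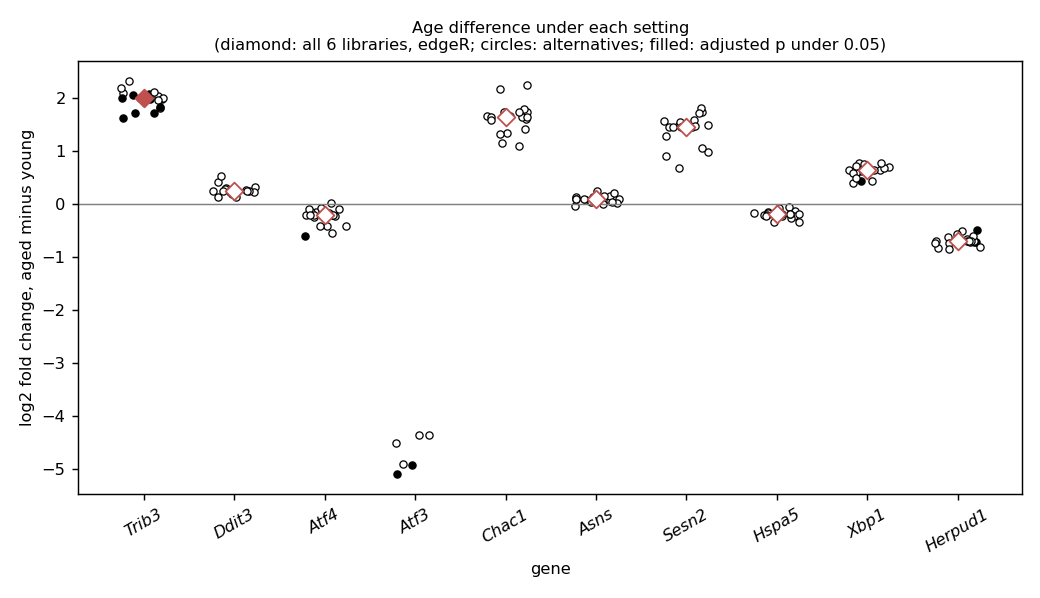
Log2 fold change, aged minus young, of the 9 tested genes in the fit of all 6 libraries (red diamonds) and of all 10 under each alternative setting (circles), filled where the adjusted p was under 0.05. Trib3 stayed between 1.63 and 2.33. Atf3 has circles only for settings that let it be tested, and with libraries left out it passed the filter only through young 5 and young 6, so its filled circles are no calls.

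Other cells could add RNA of these genes, plasma cells above all, which carry much Xbp1 and Hspa5. In bulk libraries, fewer cells of a type and less RNA per cell cannot be told apart. The 9 plasma cell markers in the table summed to 73.9 to 95.1 CPM in aged and 76.0 to 97.5 CPM in young libraries. Most of this sum was Fkbp11 and Tnfrsf13b in each library, so it says little about the other markers. Among the 9 markers, Jchain, the antibody joining chain, was called higher by edgeR's quasi-likelihood test (adjusted p = 0.0488). Jchain stood at 6.33, 23.9 and 2.55 CPM in aged and 0.159, 0.897 and 0.175 CPM in young libraries. Mzb1, a chaperone of antibody-making cells, stayed at or below 0.263 CPM in each library, and the receptor gene Tnfrsf17 at or below 0.139 CPM. Marker sums in CPM of other types were 316 to 359 in aged and 287 to 386 in young libraries for macrophages and monocytes, 60.2 to 88.7 and 74.5 to 134 for B cells, 0.186 to 1.03 and 2.23 to 3.86 for T and NK cells (Cd8a was at 0 in all 6 libraries), and 96.9 to 116 and 44.8 to 133 for erythroid cells. Most of the young T and NK sum was Cd4, at 1.99, 3.69 and 3.59 CPM in young 4 to young 6. Cd4 stood at 0.240, 0.413 and 0.186 CPM in aged libraries and was called lower by edgeR's quasi-likelihood test (adjusted p = 0.0145). Cd3e and Cd3g stayed below 0.08 CPM in each library. The neutrophil markers summed to 433 to 476 CPM in aged and 108 to 115 CPM in young libraries, nearly all of it Prtn3, and the endothelial markers, some of which stem cells also express, to 476 to 655 CPM in aged and 299.6 to 395 CPM in young libraries. The part of any of these cells in the stress gene values was not tested. The 10 stem cell and gate genes were all detected, with Cd48, which the gate excludes, at 0.511 to 2.54 CPM in aged and 8.59 to 14.5 CPM in young libraries. By edgeR's quasi-likelihood test 5 of the 10 were called higher in aged cells (Ly6a, Procr, Mecom, Hoxb5 and Fgd5) and 1 lower (Cd48). Over all genes, 4.26% were called higher and 1.5% lower.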

How the data were processed

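The authors deposited 1 table of whole-number read counts per gene for 6 libraries, with coordinates, strand and gene length. Per the labels' protocols, total RNA was amplified with the SMART-Seq v4 kit, which does not mark strand, and sequenced as single reads of 51 cycles. Per the submitters' processing notes, Trimmomatic, STAR 2.6.0, HTSeq 0.11.1, edgeR and the build mm10 were used. The sources used here name neither the annotation nor how reads were assigned to genes. Gene lengths in kb are the authors' values in the deposited table. All sample columns were used, and 0 were left out.

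Library totals lay between 16452829 and 21918658 counts. A count of 0 allows up to 3 counts, or 0.132 to 0.239 CPM by library, for counting error alone. Age was tested in edgeR 4.0.16, run in R 4.3.3, on the deposited counts (filterByExpr, TMM, estimateDisp, glmQLFit, glmQLFTest), with age as the only term and Benjamini-Hochberg adjustment over 13413 genes. Log2 fold changes are aged minus young with standard errors, and 95% intervals use the fit's degrees of freedom. The fit was tested on simulated data drawn from a shared mean profile for all libraries, apart from genes set to differ by age. No simulated library was made to stand apart as young 4 did, so that run does not cover such a library. Alternatives used other scalings and filters, DESeq2 1.42.0, limma 3.58.1 (voom), other edgeR tests, left-out libraries and a correction for length and GC content (98.0% of tested genes had a GC value). edgeR's newer quasi-likelihood method was added after seeing the data. blastn 2.17.0 found no transcript of another gene in GENCODE M21 with at least 90% identity over 100 bases to any of the 10 genes.

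The 10 genes and the pathway and marker lists were chosen with earlier results of these data known. Named list members are up to 5 called genes per list or, where fewer than 2 were called, the 2 with the smallest p. Trib1, Sesn1, Sesn3, Chac2, Eif2ak3, Hsp90b1, Ppp1r15a and Nr4a1 were named after their values were seen. A few listed markers are not analysed here.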

Additional observations from a re-analysis of the deposited data

How the results depend on the processing

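No paired analysis was possible because the replicate numbers (1 to 3 in aged, 4 to 6 in young) are not shared between the groups. Of the 10 genes, 1 was called higher with all 6 libraries; the count was 0 without scaling, with at least 5 CPM in 3 libraries or with robust empirical Bayes, and 2 by limma-voom with quality weights, and it ranged from 0 to 1 with a library left out. The count called lower was 0; it was 1 by DESeq2 (Herpud1), 2 by limma-voom with quality weights (Atf4 and Herpud1), 1 without both young 4 and aged 2, and 0 to 1 with a library left out; the last 2 counts rest on Atf3, which passed the filter there only through young 5 and young 6 and so is no call. Of the other pathway genes, 4 were called higher: 7 by DESeq2 or a likelihood ratio test, 16 by limma-voom with quality weights, and 1 to 4 with a library left out. Of them, 1 was called lower: 0 at 5 CPM or more, 4 by a likelihood ratio test, 10 by DESeq2 or after a GC and length correction, 31 by limma-voom with quality weights, and 0 to 3 with a library left out. Over all genes, 772 were called (571 higher, 201 lower): 443 at 5 CPM or more, 1910 by a likelihood ratio test, 2181 by DESeq2, 4094 by limma-voom with quality weights, 1365 (686 higher, 679 lower) after a GC and length correction, and 74 to 1029 with a library left out. Log2 fold changes turned sign for Asns (-0.044 by limma-voom with quality weights), Eif2ak3 (-0.16 after that correction) and Ppp1r15a (0.25 by limma-voom). With libraries left out they ran from -0.54 (without young 4) to 0.025 (without young 6) for Atf4, from -0.010 (without young 5) to 0.19 (without young 4 and aged 2) for Eif2ak3 and from -0.85 (without young 4) to 0.25 (without young 6) for Ppp1r15a. The cause was not tested. Without scaling the median log2 fold change of all genes was 0.20, with upper-quartile scaling 0.11 and without a filter 0.27, and none of these scalings turned the sign of any of the 9 tested genes. Trib3 was called in 12 of 20 alternatives and positive in all 20.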
